A study of Mus musculus with 4 samples.

Results

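Retinal ganglion cells are the output neurons of the retina, and 10 genes widely used to recognise them were read on expression arrays of mouse stem cell-derived retinas: Atoh7, Pou4f1, Pou4f2, Pou4f3, Isl2, Rbpms, Nefl, Nefm, Thy1 and Sncg. All 13 probes that carry one of these gene names in the array's own annotation were taken, 22 spots in all, out of 55646 probes for 35737 gene names. Of the 10 genes 9 were well above background on all 4 arrays, and Pou4f3 was so on none.

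In the developing retina the bHLH factor Atoh7 makes dividing progenitors competent to form ganglion cells, and it is switched off as they mature. The POU-domain factors Pou4f1, Pou4f2 and Pou4f3 (Brn3a, Brn3b and Brn3c) then drive and sustain the ganglion cell programme, including axon growth. The LIM factor Isl2 marks ganglion cells whose axons cross to the other side of the brain. Mature ganglion cells carry the RNA-binding protein Rbpms, the neurofilament subunits Nefl and Nefm, the surface glycoprotein Thy1 and the small presynaptic and axonal protein Sncg (gamma-synuclein). None of these genes is fully restricted to ganglion cells; neurofilaments and Thy1 mark many projection neurons, and Pou4f genes also mark sensory neurons.

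The tissue was grown as floating aggregates from mouse induced pluripotent stem cells that carry a green fluorescent reporter under the rod gene Nrl, and aggregates with bright fluorescence (3D-retinas) were picked. The 4 groups were 5 µM 4-hydroxytamoxifen (4-OHT, the active metabolite of the drug tamoxifen) with 400 µM vitamin E, a lipid-soluble antioxidant; the same dose of 4-OHT plus lutein at 200 nM, a carotenoid of the macula; 4-OHT alone at that dose; and ethanol vehicle. Treatment began on differentiation day 23 and RNA was taken on day 25, when the labels place the onset of photoreceptor degeneration. Each group was 1 array hybridised with RNA of 24 pooled 3D-retinas, so no difference below has a replicate check, an SD over cultures or a p-value. A fixed limit of 2-fold was used to count genes.

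Levels are log2 spot intensity minus the 75th percentile of the gene spots of that array, and levels of different probes are not set against each other. From 51.3% to 54.5% of an array's gene spots passed the scanner's background test (well above background), none was saturated, and the probes with 10 spots each, of which 259 to 264 per array were above background, gave an SD of 0.16 to 0.17 for a log2 difference between arrays, which covers spot noise only. Of the retinal marker lists, 10 of 10 rod and photoreceptor genes, 20 of 20 progenitor genes and 9 of 10 amacrine genes were well above background on all 4 arrays. Other lists were detected in part: 13 of 20 further ganglion cell transcription factors (6 on no array), 5 of 7 horizontal, 6 of 8 bipolar, 7 of 9 Müller glia and astrocyte and 5 of 8 pigment epithelium genes. Among other tissues, 4 of 7 forebrain markers, 4 of 9 sensory ganglion and hair cell markers, 6 of 10 vascular and mesenchymal markers and 4 of 6 microglia and blood markers were well above background on no array. All 4 arrays lay on 1 slide with 1 scan, so group and place on the slide cannot be told apart.

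Atoh7 had 2 probes, at chr10:62563489-62563548 and chr10:62563126-62563185 of the mm9 build, which the array's annotation assigns to separate transcript records of the gene. The second of these is shown because both Atoh7 probes gave a difference past 2-fold; it holds no stop codon in any of its 3 forward reading frames. The probe of Nefm, spotted 10 times per array, is shown beside it since it gives the spot noise of a member directly; its place is chr14:68738193-68738252 in mm9. Both are 60 bases long and are given as on the array, with no part in capitals.
Atoh7 probe: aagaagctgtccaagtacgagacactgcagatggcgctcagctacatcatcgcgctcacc
Nefm probe: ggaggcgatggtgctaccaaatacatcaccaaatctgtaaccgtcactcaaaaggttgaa

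The 250 bases before the annotated start of Atoh7 (RefSeq, GRCm38.p6, chr10:63099535-63099784, plus strand) and of Sncg (chr14:34374670-34374919, minus strand) are shown because these genes stood past 2-fold from vehicle in opposite directions on all 3 treated arrays. Capitals mark the E-box CANNTG, the element that bHLH factors such as Atoh7 bind, and the TATA element TATAAA; both strands were searched, and no 2 matches overlapped.
Atoh7 promoter: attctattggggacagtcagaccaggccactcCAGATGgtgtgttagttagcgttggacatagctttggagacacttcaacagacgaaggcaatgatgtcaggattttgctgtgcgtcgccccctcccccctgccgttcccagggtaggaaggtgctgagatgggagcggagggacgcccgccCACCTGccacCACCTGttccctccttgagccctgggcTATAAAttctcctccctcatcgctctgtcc
Sncg promoter: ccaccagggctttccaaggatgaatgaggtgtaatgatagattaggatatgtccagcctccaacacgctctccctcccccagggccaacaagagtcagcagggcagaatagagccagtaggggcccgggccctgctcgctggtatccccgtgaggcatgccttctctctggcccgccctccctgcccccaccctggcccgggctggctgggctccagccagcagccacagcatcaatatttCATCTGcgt

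Atoh7 held 3 E-boxes, beginning 218, 67 and 57 bases before the start, and 1 TATAAA at 30 bases. Sncg held 1 E-box at 9 bases and no TATAAA. Promoters of 5 of the 10 genes were in the table used; Pou4f1 held 2 E-boxes, at 118 and 41 bases, and Pou4f2 and Isl2 held none. ATTAAT, a core of the sites bound by POU4F factors, was in none of the 5. Over 32851 mouse promoters of the same length, 66.2% held an E-box, 12.4% TATAAA and 4.39% ATTAAT, so an E-box alone does not set these genes apart. These matches describe letters in the window and are no evidence of binding.

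Atoh7, the ganglion cell competence factor, was higher on every array with 4-OHT than on the vehicle array. At its brighter probe the level was 0.56 with 4-OHT and vitamin E, 0.13 with 4-OHT and lutein, -0.07 with 4-OHT alone and -1.21 with vehicle. The vehicle array was the low one and the vitamin E array the high one. The intensities behind these levels were 803, 602 and 475 units on the treated arrays in that order and 245 on the vehicle array, all well above background. Against vehicle, Atoh7 was 3.41-fold higher with 4-OHT and vitamin E, 2.52-fold higher with 4-OHT and lutein and 2.20-fold higher with 4-OHT alone. These are log2 differences of 1.77, 1.33 and 1.14, each more than 6 times the SD of spot noise.

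The second Atoh7 probe, dimmer, gave levels of -1.66 with 4-OHT and vitamin E, -1.77 with 4-OHT and lutein, -2.26 with 4-OHT alone and -3.66 with vehicle. It kept the order of the first probe over the 4 arrays. Its folds against vehicle were 3.99, 3.70 and 2.65 in the same order of groups. On the vehicle array its intensity was 44.6, where the scanner software put the error of that spot at 17.5%. Against 4-OHT alone, Atoh7 was higher by 0.63 with vitamin E at the brighter probe and by 0.59 at the dimmer one. With lutein the 2 probes gave 0.20 and 0.48. Under normexp background correction the 4-OHT difference from vehicle at the brighter probe was 0.89 and under spike-in scaling 0.99, both short of 2-fold.

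Sncg, an axonal and presynaptic protein of mature ganglion cells, was lower on every array with 4-OHT than on the vehicle array. Its level was -1.67 with 4-OHT and vitamin E, -1.53 with 4-OHT and lutein and -1.73 with 4-OHT alone, against -0.32 with vehicle. The 3 treated arrays lay within 0.20 of each other, and the vehicle array stood alone above them. Intensities were 171, 191 and 150 on the treated arrays and 451 on the vehicle array. Against vehicle, Sncg was 2.54-fold lower with 4-OHT and vitamin E, 2.31-fold lower with 4-OHT and lutein and 2.64-fold lower with 4-OHT alone (log2 -1.34, -1.21 and -1.40). In RNA of whole retinas, fewer cells of a type and less RNA per cell cannot be told apart. Under normexp correction the lutein difference was -0.96, short of 2-fold. Sncb, a presynaptic protein of many neurons, differed between 4-OHT alone and vehicle by -0.40.

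**Figure D1:**
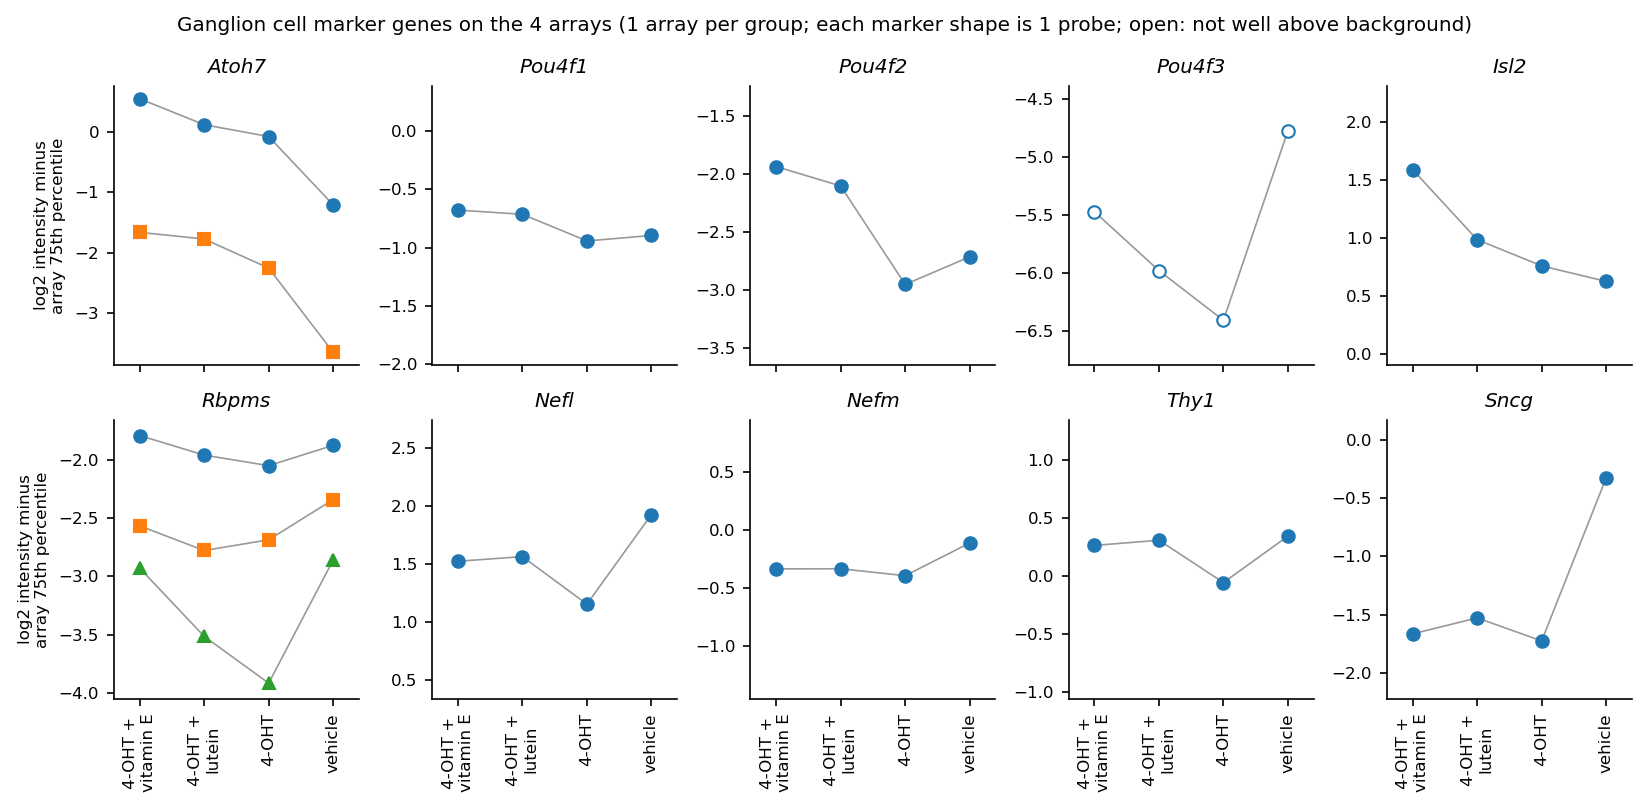
Level of each of the 10 marker genes on the 4 arrays (y axis, log2 intensity minus the array's 75th percentile; x axis, group; 1 array per group; each marker shape is 1 probe, open circles are values not well above background). Both Atoh7 probes were lowest on the vehicle array, Sncg was highest there, and Pou4f2 was higher on both supplement arrays than on the 4-OHT and vehicle arrays.

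Pou4f2, the factor that starts ganglion cell differentiation downstream of Atoh7, was higher on the supplement arrays than on either other array. Its level was -1.94 with 4-OHT and vitamin E, -2.11 with 4-OHT and lutein, -2.95 with 4-OHT alone and -2.72 with vehicle. The supplement arrays lay within 0.17 of each other, and the 4-OHT array was the lowest. Against 4-OHT alone Pou4f2 was 2.02-fold higher with vitamin E (log2 1.01) and 1.80-fold higher with lutein (0.85). Against vehicle it was 1.71-fold and 1.53-fold higher with vitamin E and lutein added to 4-OHT, and 4-OHT alone differed from vehicle by -0.24. The gene is dim, with intensities of 142, 128 and 64.3 on the treated arrays in the same order and 85.9 on the vehicle array, and its size depended on background treatment: with normexp correction the vitamin E difference from 4-OHT was 0.50 and the lutein difference 0.37.

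Pou4f1, a POU factor of mature ganglion cells, varied little. Its level was -0.68 with 4-OHT and vitamin E, -0.71 with 4-OHT and lutein, -0.94 with 4-OHT alone and -0.90 with vehicle. The largest of its 6 pairwise differences was 0.27, between 4-OHT with vitamin E and 4-OHT alone. Pou4f3, a POU factor of a subset of ganglion cells and of inner ear hair cells, gave intensities of 12.3, 8.7 and 5.9 on the treated arrays and 20.6 on the vehicle array, none well above background, and no fold is given for it.

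Isl2, a LIM factor of ganglion cells whose axons cross to the other side of the brain, was highest with vitamin E. Its level was 1.59 with 4-OHT and vitamin E, 0.98 with 4-OHT and lutein, 0.76 with 4-OHT alone and 0.63 with vehicle. The vitamin E array was 1.95-fold above vehicle, 1.78-fold above 4-OHT alone and 1.52-fold above the lutein array, each short of 2-fold and each over 3 times the SD of spot noise. The difference of 0.13 between 4-OHT alone and vehicle was smaller than that SD and was -0.01 under spike-in scaling.

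Nefl, the light neurofilament subunit of large axons, was lowest with 4-OHT alone. Its level was 1.52 with 4-OHT and vitamin E, 1.56 with 4-OHT and lutein and 1.16 with 4-OHT alone, against 1.93 with vehicle. The supplement arrays lay between the 4-OHT and the vehicle array. Nefl was 1.71-fold lower with 4-OHT alone than with vehicle (log2 -0.77), and higher than with 4-OHT alone by 0.37 with vitamin E and by 0.41 with lutein.

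Nefm, the medium subunit of the same filament, differed less. Its mean over 10 spots was -0.33 with 4-OHT and vitamin E, -0.33 with 4-OHT and lutein and -0.39 with 4-OHT alone, against -0.11 with vehicle. The spots ran between -0.40 and -0.28 with vitamin E, between -0.44 and -0.26 with lutein and between -0.49 and -0.31 with 4-OHT alone, against between -0.17 and -0.06 with vehicle. No spot of a treated array reached the lowest vehicle spot, while the spots of the 3 treated arrays overlapped each other. The spots share 1 RNA pool per array, so this separation speaks to spot noise and not to cultures; the log2 difference from vehicle was -0.22 with vitamin E, -0.22 with lutein and -0.28 with 4-OHT alone.

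Thy1, the surface glycoprotein, had levels of 0.26 with 4-OHT and vitamin E, 0.31 with 4-OHT and lutein and -0.06 with 4-OHT alone, against 0.34 with vehicle. The 4-OHT array was the low one, by -0.40 from vehicle, and the other 3 arrays differed from each other by at most 0.08.

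Rbpms, an RNA-binding protein found in nearly all ganglion cells of the mammalian retina, had 3 probes that gave different sizes. The brightest had levels of -1.79, -1.96 and -2.05 with vitamin E, with lutein and with 4-OHT alone, against -1.87 with vehicle. The next had -2.56, -2.78 and -2.68, against -2.34 with vehicle, and the dimmest had -2.93, -3.51 and -3.92, against -2.86 with vehicle. All 3 were lower with 4-OHT alone than with vehicle, by log2 differences of -0.17, -0.35 and -1.06. The first of these was about the size of the SD of spot noise. Under the alternatives, 4 of the 54 recomputed Rbpms differences over all comparisons changed sign. The dimmest probe, at chr8:34893855-34893914 in mm9, was 2.08-fold lower on intensities of 32.9 with 4-OHT and 77.9 with vehicle; the next lies nearby, at chr8:34893516-34893575, on the same transcript record, so these 2 probes of 1 record differed in size. With vitamin E against 4-OHT alone the 3 probes gave 0.26, 0.12 and 0.99.

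**Figure D2:**
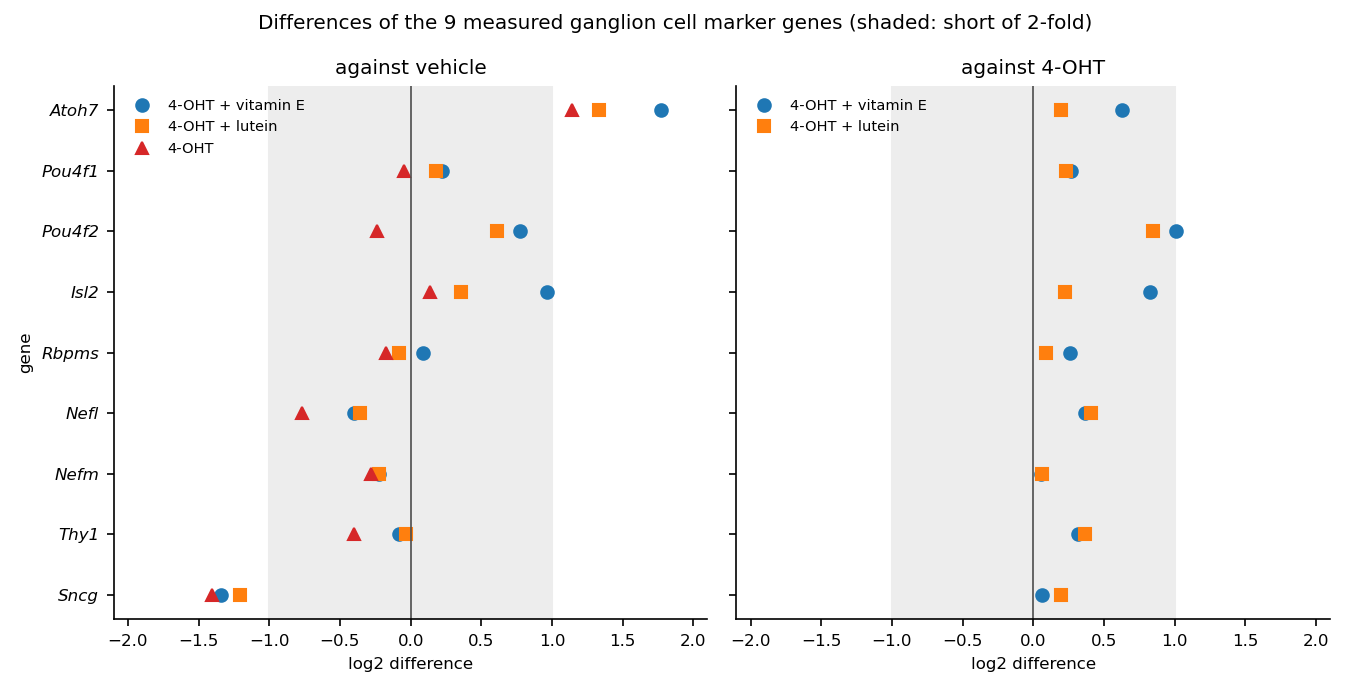
Log2 differences of the 9 measured marker genes from vehicle (left) and from 4-OHT alone (right), 1 array per group; the shaded band is short of 2-fold. Atoh7 and Sncg lay outside the band on opposite sides on all 3 treated arrays, and every gene was above 0 on both supplement arrays against 4-OHT.

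Counted together, 1 of the 9 measured genes was at least 2-fold higher with 4-OHT than with vehicle (Atoh7) and 1 at least 2-fold lower (Sncg). In that comparison 7.75% of all 22077 measured genes were past the limit upwards and 3.15% downwards. The median of the 9 log2 differences was -0.24, against -0.06 over all measured genes and -0.13 over protein-coding ones. Among protein-coding genes 1.09% had a lower difference than Sncg, 7.35% a lower one than Nefl and 4.56% a higher one than Atoh7, and the other 6 marker genes had between 29.8% and 73.0% of genes above them.

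With vitamin E added to 4-OHT, 1 gene was at least 2-fold higher than with 4-OHT alone (Pou4f2) and none lower, where 1.49% of all measured genes were higher and 8.81% lower. With lutein added, none was past 2-fold in either direction, where 1.15% of all genes were higher and 3.84% lower. All 9 genes, read by their brightest probe, were above 0 in both comparisons under each scaling tried; the comparisons share the 4-OHT array, on which 7 of the 9 genes were below vehicle. The second Rbpms probe was at -0.09 with lutein. The marker genes' medians were 0.32 with vitamin E and 0.23 with lutein, against 0.17 and 0.13 over protein-coding genes, of which 34.1% and 30.6% were below 0. Pou4f2 had 1.32% of protein-coding genes above it with vitamin E and 1.20% with lutein, and Isl2 had 2.86% above it with vitamin E and 30.9% with lutein.

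Against vehicle, the supplement arrays gave the same pair of genes past 2-fold: Atoh7 was higher and Sncg lower with vitamin E, where 1.09% and 1.98% of all measured genes were past 2-fold higher and lower, and likewise with lutein, where 3.43% and 1.49% were. These comparisons share the vehicle array with that of 4-OHT alone. The marker genes' median was 0.08 with vitamin E and -0.04 with lutein. With vitamin E against vehicle, 0.216% of protein-coding genes had a higher difference than Atoh7 and 0.460% a lower one than Sncg. Between the supplements no marker gene was past 2-fold, where 0.495% of all genes were higher with vitamin E and 3.66% lower; the largest difference was that of Isl2, 0.60 higher with vitamin E.

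**Figure D3:**
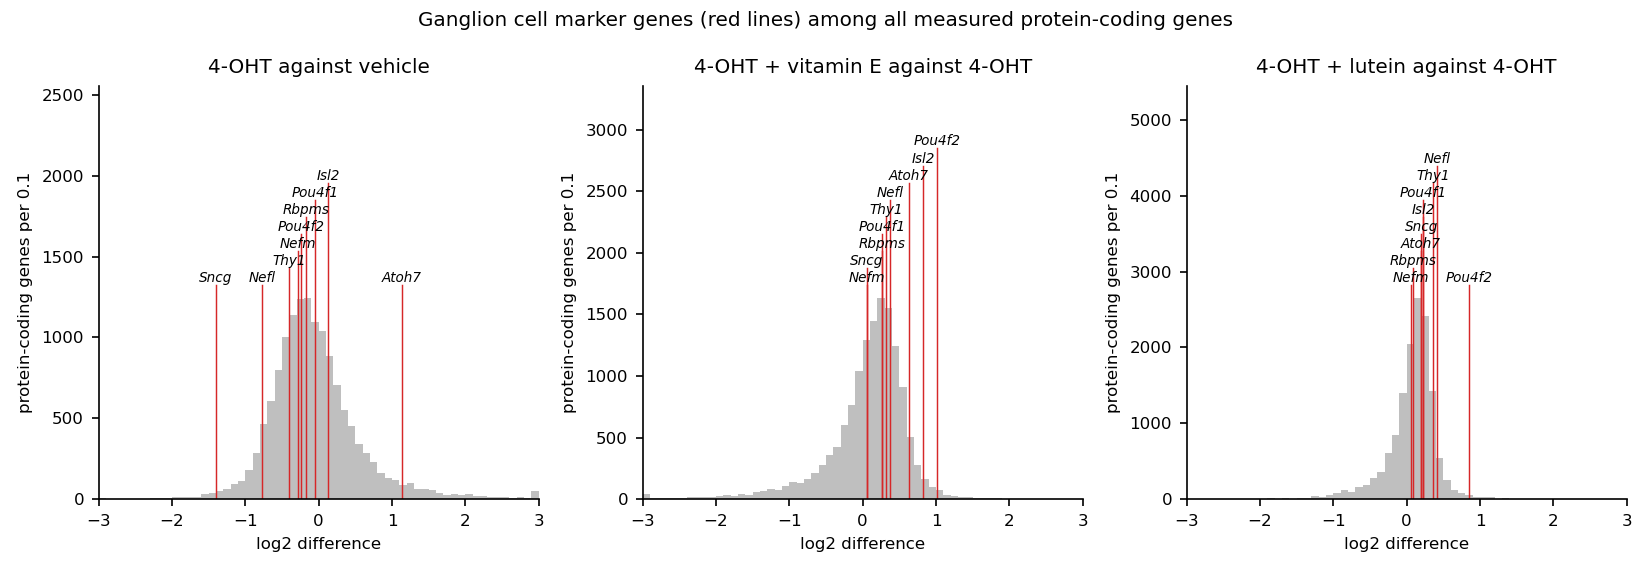
Distribution of log2 differences of all measured protein-coding genes (grey bars, number of genes per 0.1; values past 3 in either direction are put in the end bars) with the 9 marker genes as red lines, for 4-OHT against vehicle and for each supplement against 4-OHT alone. Sncg and Atoh7 lay in opposite tails for 4-OHT against vehicle, and Pou4f2 lay in the upper tail with each supplement.

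The genes whose levels over the 4 arrays ran closest to those of a marker gene were found for the 3 members with a range of at least 1, among 13761 genes, by the largest distance on any array after each gene was centred on its own mean. Nearest to Atoh7 were Itga11, an integrin subunit (0.17), Six5, a homeobox factor (0.22), and Rgs16, a regulator of G protein signalling (0.23), with 6 genes within 0.25. Nearest to Sncg were Dglucy (0.11), Greb1l (0.12) and Cmtm5 (0.13), with 17 genes within 0.25, and nearest to Pou4f2 were Ahnak2 (0.11), Gm11544 (0.11) and Pmch, the precursor of a neuropeptide (0.14), with 48. The marker genes themselves were left out of this search, so none of them could appear. None of the genes found is on the other ganglion cell lists used here, and 4 arrays are few for likeness.

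Other ganglion cell genes were read from lists. Of 20 further ganglion cell transcription factors 13 were measured for 4-OHT against vehicle, with 1 at least 2-fold higher, 1 lower and a median of -0.05. Over all measured genes 7.75% were higher and 3.15% lower, so counts of 1 gene do not set this list apart. Tbr1, a T-box factor of ganglion cell subtypes and of the forebrain, had levels of -2.35 with 4-OHT and vitamin E, -2.77 with 4-OHT and lutein and -3.64 with 4-OHT alone, against -2.52 with vehicle. The 4-OHT array was the low one, as for Pou4f2 and Nefl. Sox11, a SoxC factor of young neurons and of injured axons, had levels of 1.27, 2.03 and 2.42 on the treated arrays in that order, against 0.63 with vehicle, and was 3.46-fold higher with 4-OHT alone. Klf7, a factor of axon growth, differed by 0.72 and Myt1 by -0.50, both short of 2-fold. Of 20 further surface, transmitter and subtype markers 17 were measured and none was past 2-fold (median -0.07); the largest differences were those of Jam2 (-0.79), Rbpms2, the paralogue of Rbpms (-0.79), the neuropeptide gene Gal (0.68) and Ablim1 (-0.52).

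Genes of the axon and the neuronal cytoskeleton were mostly slightly lower with 4-OHT alone. Of 20 genes 16 were below 0 against vehicle, with a median of -0.37, where 60.5% of protein-coding genes were below 0. Elavl2, a neuronal RNA-binding protein, had a level of -1.78 with 4-OHT alone against -0.78 with vehicle and lay just past the 2-fold limit. Its relative Elavl4 differed by -0.81 and the microtubule protein Map2 by -0.80. With vitamin E against 4-OHT alone 17 of the 20 were above 0 (median 0.30), and with lutein 17 of 20 (median 0.21); protein-coding genes had medians of 0.17 and 0.13, with 34.1% and 30.6% of them below 0. Prph, the intermediate filament peripherin, went the other way: it was well above background with 4-OHT and with 4-OHT and lutein, and was at least 8.68-fold higher with 4-OHT than with vehicle. Prph and Runx1 (at least 5.70-fold higher) are also on the sensory ganglion list, whose markers Avil, Drgx, Tlx3 and Atoh1 were well above background on no array.

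Among axon guidance genes, 14 of 15 were measured for 4-OHT alone against vehicle, with 1 lower, none higher and a median of 0.05. Over all measured genes 3.15% were lower and 7.75% higher, so a count of 1 gene does not set this list apart. Ephb1, the ephrin receptor of ganglion cells whose axons turn back at the optic chiasm, had levels of -1.22 with 4-OHT and vitamin E, -1.42 with 4-OHT and lutein and -1.65 with 4-OHT alone, against -0.02 with vehicle. As for Sncg, the 3 treated arrays lay together and below vehicle. Dcc, the netrin receptor, differed by 0.90, Epha5 by -0.74 and Alcam by 0.44 between 4-OHT alone and vehicle. Of 14 neurotrophic receptors and ligands 12 were measured in the same comparison, with 3 higher and none lower, beside the 7.75% and 3.15% above. The 3 were Bdnf, a survival factor of ganglion cells (log2 1.46), Cntfr, the receptor subunit for ciliary neurotrophic factor (1.51), and Gdnf (at least 1.07). The list was chosen with earlier results of these data known, so its count is no independent result.

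Among 19 measured genes of axon injury and neuronal death, 9 were at least 2-fold higher with 4-OHT alone than with vehicle and none lower (median 0.90), where 7.75% of all measured genes were higher; 6 of the 19 were below 0. With vitamin E against 4-OHT alone 8 were at least 2-fold lower, where 8.81% of all genes were, and with lutein against 4-OHT alone none was past 2-fold. For 4-OHT alone against vehicle the largest differences were those of the stress factor Atf3 (4.38) and the glutathione-degrading enzyme Chac1 (2.87). The pro-death gene Bbc3 (2.30) and the kinase-like Trib3 (2.06) came next. This list was chosen with earlier results of these data known, so its count beside 7.75% is no independent result about axon injury. The RNA was of whole 3D-retinas, so the cell type behind these values cannot be told, and a link to ganglion cells was not tested.

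**Figure D4:**
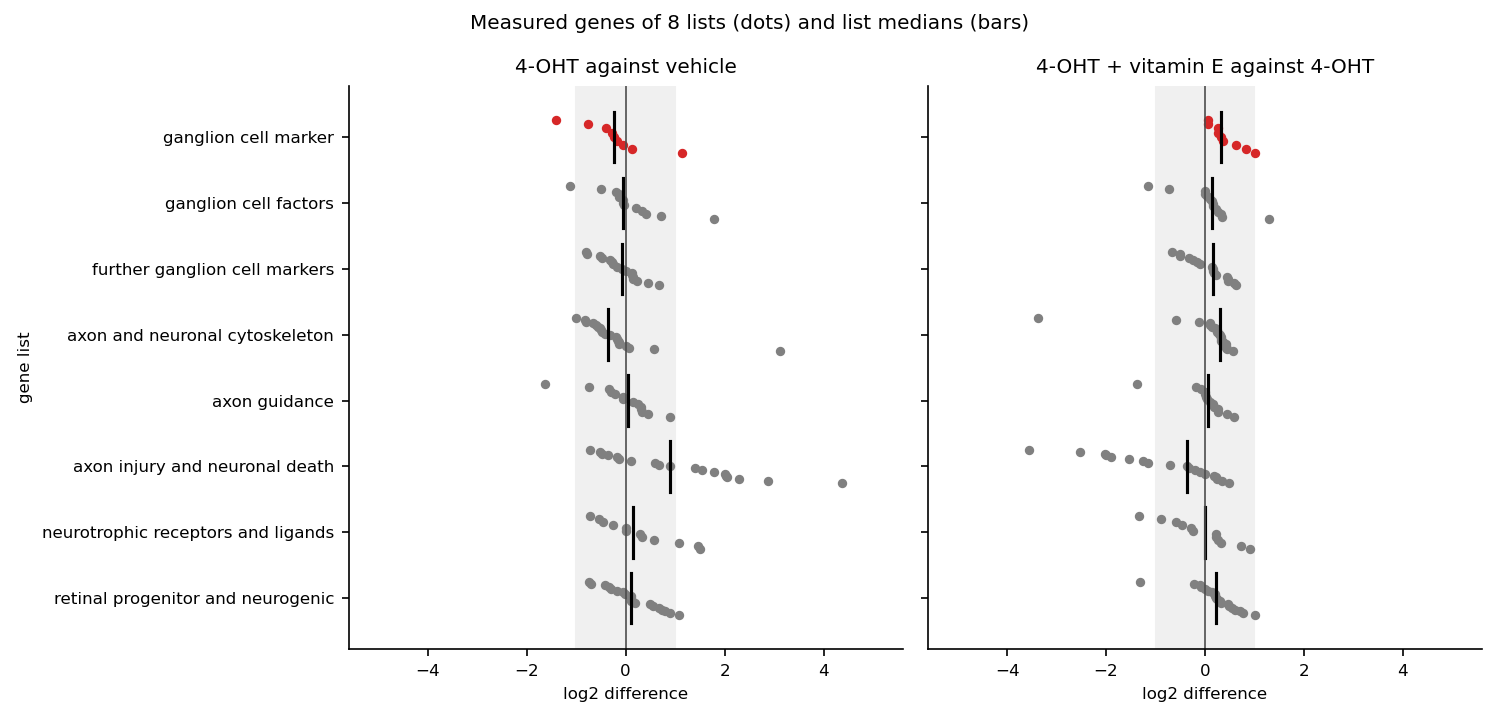
Log2 differences of the measured genes of 8 gene lists (dots, marker genes in red; bounds of dim genes included; black bars, list medians; shaded band, short of 2-fold) for 4-OHT against vehicle and for 4-OHT with vitamin E against 4-OHT. The marker and axon lists had medians of -0.24 and -0.37 for 4-OHT against vehicle, and the injury list 0.90. All lists were chosen with earlier results of these data known.

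Genes of retinal progenitors were read because Atoh7 is expressed in progenitors as they leave the cell cycle. All 20 were measured, with 1 higher (Notch1, 1.07), none lower and a median of 0.11 for 4-OHT against vehicle. Over all measured genes 7.75% were higher and 3.15% lower. Fgf15, a growth factor of retinal progenitors, had levels of -1.06 with 4-OHT and vitamin E, -1.15 with 4-OHT and lutein and -1.76 with 4-OHT alone, against -2.65 with vehicle. Like Atoh7, it was lowest on the vehicle array and highest with vitamin E. The Notch ligand Dll1 differed by 0.79 and the Wnt inhibitor Sfrp2 by -0.73 between 4-OHT alone and vehicle. With vitamin E against vehicle 16 of 20 progenitor genes were above 0 (median 0.33), and with lutein against vehicle 12 of 20 (median 0.23). Of protein-coding genes 48.4% were below 0 with vitamin E and 52.6% with lutein, so the lutein count is near that of all genes.

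Markers of the other retinal neurons differed on the same arrays, and their part in the results was not tested. All counts in this paragraph are for 4-OHT against vehicle, where 7.75% of all measured genes passed the limit upwards and 3.15% downwards. Counts of 1 or 2 genes in lists this short do not set a list apart. The lists were chosen with earlier results of these data known. Rod and photoreceptor genes, the cells the reporter marks, had a median of -1.06 for 4-OHT against vehicle with 5 of 10 at least 2-fold lower, 0.91 for vitamin E against 4-OHT alone and 0.47 for lutein. Amacrine genes had a median of -0.17 with 1 of 10 higher (Chat, the acetylcholine-synthesising enzyme, 1.47) and 1 lower (Gad1, a GABA-synthesising enzyme, -1.01). Horizontal cell genes had a median of -0.35 over 5 measured of 7, with 1 higher (Onecut2, 1.67). Bipolar genes had a median of 0.21 over 7 measured of 8, with 2 higher (Cabp5, 1.98, and Trpm1, 1.02) and 1 lower (Vsx1, at least 2.12-fold). Müller glia and astrocyte genes had a median of 0.17 over 8 measured of 9, with 1 higher (Clu, clusterin, 2.24). Some markers are shared, so counts of different lists are not independent. Among others, Nefh stands in the axon and the horizontal list, and Tbr1 in the ganglion cell and the forebrain list. Isl1 stands in the ganglion cell factor and the bipolar list. Sox11 counts as higher in both the ganglion cell factor and the injury list. Gal and Gap43 of the injury list also stand in the further marker and the axon list, respectively.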

How the data were processed

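Per the labels' protocols, 50 ng of RNA from each of 4 pools (1 per group) received the dye Cy3. The 1-colour mouse arrays were read, per the submitters' processing notes, in Agilent Feature Extraction, version 10.7.3.1. The deposited spot intensity was background-subtracted and detrended but not normalized between arrays, per the file headers, and probe positions are on mm9. The lutein file was saved at 3 significant digits with 57 altered gene names, so names came from the vehicle file. Exons and UTRs were not looked up for mm9.

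Control and outlier spots were left out (137 to 164 outliers per array). Each log2 intensity was set against the array's 75th percentile over gene spots and averaged per probe. A gene was read from its brightest probe by mean log2 value. A gene was measured in a comparison if well above background on at least 1 of its arrays; a dim side took the array's lowest detected signal, or its own where higher, giving a bound ("at least N-fold"). Where that bound did not leave the detected array higher, the difference was taken as none and the gene still counted as measured. No test was possible, and the number of arrays limits the precision. The 6 comparisons were counted at 2-fold; steps were tested on simulated data.

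All members, up to 4 genes of each of 18 further lists (those with the largest difference between 4-OHT and vehicle) and the 3 nearest genes were to be named; the text gives a selection, and 1 listed gene is not reported here, lists of supporting tissues being given by detection only. The members and lists were chosen with earlier results of these data known. Protein-coding status, symbols and promoters came from RefSeq (GRCm38.p6), in which 28314 of 55646 probes had their accession. Alternatives were scaling on probes detected on all arrays, quantile normalization, 7 of 10 spike-in probes, normexp (offset 50, limma 3.58.1 under R 4.3.3), other detection and probe rules, and the authors' deposited value table. Other steps used Python 3.11.15, NumPy 2.4.6, pandas 2.3.3 and matplotlib 3.10.9.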

Additional observations from a re-analysis of the deposited data

How the results depend on the processing

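No paired analysis was possible because there was a single array in every group. Counts of marker genes past 2-fold rest on 1 gene each, so small shifts move them. The share over all measured genes was taken at 2-fold only. Counts at 1.5-fold and 4-fold thus have no share beside them and cannot be set against all genes. For vitamin E against 4-OHT the count of 1 higher gene (Pou4f2) was 0 with scaling on the median of probes well above background on all arrays, 0 with normexp background, 2 with spike-in scaling (Isl2 added), 3 at a limit of 1.5-fold and 0 at 4-fold. For 4-OHT against vehicle the 1 higher gene (Atoh7) was lost (0) with spike-in scaling, normexp and the 4-fold limit. The 1 lower gene (Sncg) became 2 without a detection filter, which added Pou4f3, a gene well above background on no array. The lower count was also 2 at 1.5-fold and 0 at 4-fold. It was 2 with the probe of lowest mean per gene (an alternative chosen after seeing the data, adding Rbpms). For vitamin E against vehicle the higher count was 2 with spike-in scaling, 3 at 1.5-fold and 0 at 4-fold, and the lower count 0 at 4-fold. For lutein against vehicle the higher count was 2 at 1.5-fold and 0 at 4-fold. The lower count was 0 with normexp, 2 without a filter (Pou4f3 added, again not well above background) and 0 at 4-fold. For lutein against 4-OHT and for vitamin E against lutein the higher count was 1 at 1.5-fold. The cause was not tested. Of 486 recomputed gene differences 41 moved by more than the SD of spot noise and 11 changed sign, 2 of them by more than that SD (Rbpms, with normexp). Atoh7, Sncg and Pou4f2 changed sign under none of the alternatives. Spike-in scaling shifted the median of all genes by -0.15 for 4-OHT against vehicle, 0.22 for vitamin E and 0.11 for lutein against 4-OHT, and 0.11 for vitamin E against lutein; leaving out the filter shifted it by -0.17, -0.13 and -0.15 for vitamin E against 4-OHT, vehicle and lutein. The authors' deposited value table is the linear intensity divided by 1 number per array (468.9, 479.2, 434.1 and 494.2 for vitamin E, lutein, 4-OHT and vehicle; column medians 0.0736, 0.0847, 0.0949 and 0.0794), not centred; it gave the same counts. Signal limits Pou4f3, the dimmer Atoh7 probe, Pou4f2 and the dimmest Rbpms probe, which lie near background.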
